A study of Mus musculus with 4 samples.

Results

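Basement membranes are thin sheets of extracellular matrix that lie under the endothelium and around cardiomyocytes and mural cells. Collagen IV and laminins each polymerize into a network, and nidogens and the heparan sulfate proteoglycan perlecan bridge these networks. The accessible chromatin of the genes that encode these proteins was examined in endothelial and non-endothelial nuclei of the heart. The 10 genes, chosen by name, were Col4a1 and Col4a2 (the chains of the widespread collagen IV trimer), Lama4 and Lama5 (the laminin alpha chains of vascular basement membranes), Lamb1 and Lamb2 (beta chains), Lamc1 (the gamma chain of most laminins), Nid1 and Nid2 (nidogens) and Hspg2 (perlecan). They were 10 of 21728 protein-coding genes in the annotation, and they formed 9 loci because Col4a1 and Col4a2 start at the same place.

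ATAC-Seq, in which the transposase Tn5 inserts adapters into open DNA, had been performed on sorted nuclei from whole hearts of male C57BL/6 mice aged 8 to 12 weeks. All animals carried NuTRAP/Cdh5-Cre, in which Cre driven by the Cdh5 promoter switches on a GFP reporter, so that GFP+ nuclei belong to cells of endothelial descent and GFP- nuclei to all other heart cells together. There were 2 libraries per population, made from 100 to 50000 nuclei each, and 1 peak list per population had been called from both libraries together. No value per library was therefore at hand, no difference below has a replicate check, no test was possible, and the intervals given for shares cover counting error only.

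The GFP- list held 78912 peaks covering 52.1 Mb and the GFP+ list held 65008 peaks covering 41.8 Mb. Peaks were ranked within their own list by area (the caller's signal added up along the peak), as a percentile from 0 for no peak to 100 for the largest, and differences are GFP+ minus GFP- in rank points. Of 8 endothelial marker genes, 7 had a peak at the start of the gene in either list, and 6 of these ranked over 10 points higher in GFP+ (Cdh5, 18.0 against 85.3), whereas Tek ranked lower, at 81.1 in GFP- and 54.1 in GFP+. All 5 fibroblast markers with a peak at the start of the gene record had it in GFP- only (Tcf21, Dpt, Dcn, Pdgfra and Col1a1), although Pdgfra and Col1a1 had GFP+ peaks at other annotated starts. Of the mural markers, Pdgfrb and Rgs5 had no start peak in GFP+, and Myh11, Cspg4 and Kcnj8 had one in both lists. Cardiomyocyte markers did not separate the lists in this way, since 5 of 6 had a start peak in both and Tnni3 ranked 99.8 in each, and Actc1 alone moved past 10 points (99.9 in GFP- and 88.5 in GFP+). No glial marker and 1 of 4 leukocyte markers had a start peak.

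At the starts, the basement membrane genes were open in both populations, and only Nid1 ranked more than 10 points lower in endothelial nuclei. Because each list pools all nuclei of a population, fewer nuclei with an open site and less opening per nucleus cannot be told apart. A start peak, overlapping the 5′ end of the gene record by 250 bp to either side, was present in both lists for 10 of 10 genes, where GFP- peaks covered 56.9% and GFP+ peaks 54.8% of all protein-coding starts. Over the 10 genes, the GFP- ranks had a median of 93.0 and the GFP+ ranks one of 92.3. Their differences had a median of -0.80 points, and it was -0.83 over the 12577 genes with a start peak in either list. An interval of the 10 genes' median from order statistics ran from -3.37 to 1.10, with the joint Col4a1 and Col4a2 peak counted for each gene. It treats the chosen genes as independent draws and describes their spread, not the error of a difference between populations. When the GFP- list was shortened to its 65008 largest peaks, the medians of the 10 genes and of all genes became 0.90 and 0.42. The sign of such small differences thus depends on the length of the lists. Nid1 was the only gene of 10 to move by more than 10 points. Over all genes with a start peak, 12.5% ranked over 10 points lower in GFP+ and 3.57% over 10 points higher.

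**Figure D1:**
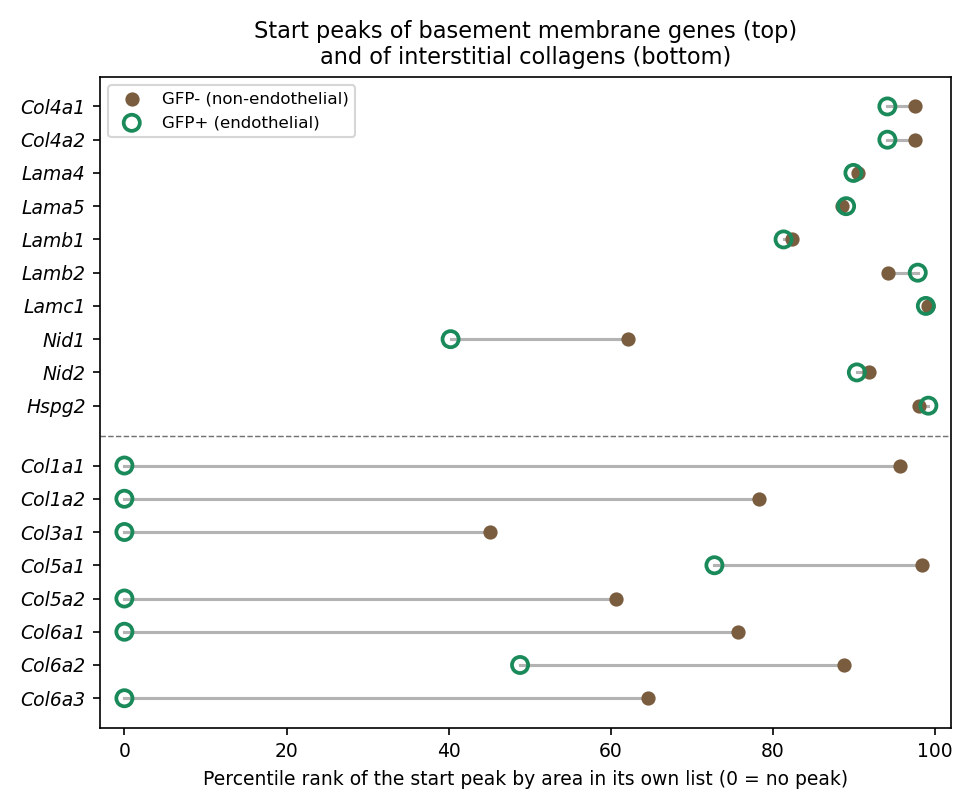
Percentile rank by area of the peak at each gene's start in the GFP- list (filled) and the GFP+ list (open circles), joined by a line, for the 10 basement membrane genes above the dashed line and 8 interstitial collagens below it. Ranks of 9 of the 10 basement membrane genes lie above 80 in both lists, Nid1 lies at 62.2 and 40.2, and 6 of the 8 interstitial collagens sit at 0 in GFP+.

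The collagen IV genes start head to head. In the annotation, Col4a1 runs left from chr8:11312826 and Col4a2 runs right from chr8:11312805 (mm10), so that their 5′ ends overlap by 22 bp. A single peak covered both starts in each list. It spanned chr8:11311588-11314313 (2726 bp) in GFP- and chr8:11311616-11313517 (1902 bp) in GFP+, with ranks of 97.5 and 94.1. In GFP- it was number 1970 of its list by area and in GFP+ number 3815. A further GFP+ peak, chr8:11313627-11314374 (748 bp, rank 56.2), also overlapped the GFP- peak. The part of this split in the rank difference was not tested. The sequence at the joint start is shown because both genes' transcription begins in it, written on the plus strand with the bases between the annotated 5′ ends in capitals (chr8:11312801-11312830, GRCm38.p6).

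Col4a1-Col4a2 5′ ends: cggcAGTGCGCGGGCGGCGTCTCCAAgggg

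These capitals hold the word GGGCGG, the GC box bound by Sp family factors. The 500 bp round the Col4a1 start were 74.3% G and C, equal to or above 95.4% of protein-coding genes, where the median gene had 57.1%. Of 7 genes with an entry in the RefSeq promoter table (250 bp before to 50 bp after a start, GRCm38), 6 held GGGCGG on either strand and 4 held CCAAT, against 35.7% and 37.4% of 32851 promoters. The 6 were Col4a1, Col4a2, Hspg2, Lama5, Lamb1 and Nid1. Col4a1 and Col4a2 are not separate cases here, since their starts overlap, and the 32851 promoters were not matched for G and C content. None of the 7 held the words used for ETS (CAGGAAGT), SOX (CCATTGT), TCF21 (AACAGCTG) or AP-1 (TGACTCA or TGAGTCA), which were in 3.33%, 3.66%, 1.59% and 5.20% of promoters.

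The laminin starts ranked nearly alike in the populations. Lama4 had a start peak of 1909 bp in GFP- and 1647 bp in GFP+ (ranks 90.5 and 89.9). Lama5 ranked 88.5 and 89.0, and its GFP+ peak was the longer, with 2047 bp against 1530 bp. Both alpha chain genes thus lay within 1 point between lists. Lamb1 ranked 82.4 in GFP- and 81.3 in GFP+, the lowest ranks among the laminin genes of the set. Lamb2 ranked 94.2 and 97.9, the largest step upward of the 10 genes. Its peak was 2119 bp long in GFP- and 3787 bp in GFP+, where it ran on over a stretch that the GFP- list gives as a second peak (chr9:108480875-108482267, rank 85.2). Area adds up along a peak. The GFP+ peak had an area of 7702, the GFP- start peak had 5671 and the second GFP- peak 2988. The part of this split in the step was not tested. The Lamb2 start was also the poorest of the set in CpG, with an observed-to-expected ratio of 0.350 against a median of 0.591 over genes. Lamc1, at ranks 99.1 and 98.9, was the most open laminin start, number 675 by area in GFP- and number 730 in GFP+.

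The nidogen starts differed from each other. Nid2 had peaks of 1519 bp and 1464 bp with ranks of 91.8 and 90.4. Nid1 had the shortest start peaks of the set, 306 bp in GFP- and 288 bp in GFP+ (chr13:13437397-13437702 and chr13:13437415-13437702). These ranked 62.2 and 40.2, a difference of -21.9 points, and 7.30% of genes with a start peak had a difference as low or lower. The Hspg2 start peaks were the longest of the set, 3282 bp in GFP- and 3954 bp in GFP+, and ranked 98.1 and 99.2.

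Counting every annotated transcript start, the 10 genes had 50 starts, of which 26 were covered by a GFP- peak and 27 by a GFP+ peak. Many of the uncovered starts belong to transcripts annotated as retained introns. Nearly all of the covered starts lay in the main start peak of the gene, and 3 lay elsewhere. A short Col4a1 transcript that begins 33170 bp into the gene had a peak ranked 63.5 in GFP- and 87.0 in GFP+. A Lamb1 transcript annotated as a retained intron, which begins 11422 bp into the gene, had a peak ranked 73.3 in GFP- and 61.2 in GFP+. A short Col4a2 transcript, also annotated as a retained intron, begins 128304 bp into the gene. Within 250 bp of its start there was a GFP+ peak of rank 35.9. The GFP- peak that overlaps this GFP+ peak (chr8:11441376-11441658, rank 17.0) lay just outside this window. The peak at this internal start of Col4a1 thus ranked higher in GFP+, and the peak at the main start ranked slightly lower. The peak next to the internal one, chr8:11277466-11278911, went the other way, with 88.5 in GFP- and 60.1 in its GFP+ partner.

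Relatives of these genes were less uniform. Of 20 other basement membrane genes, 14 had a start peak in either list, 4 ranked over 10 points lower in GFP+ and 2 higher, with a median difference of -0.70. With the best of all annotated starts, 17 had a start peak, 7 ranked lower and 1 higher, with a median of -5.71. The lower ones at the gene record were Col4a3 and Col4a4, which share a start peak as Col4a1 and Col4a2 do (82.2 and 67.8), Col4a5 (53.7 and 27.1) and Col15a1 (53.5 and 14.9). The higher ones were Lama3 (47.3 and 58.3) and Col18a1, whose endostatin-bearing collagen had a peak at the start of the gene record in GFP+ only, at rank 35.5. Over all annotated starts, Col18a1 changed direction, to 67.4 in GFP- and 35.5 in GFP+, and Lama2, the laminin alpha chain of muscle, ranked 85.0 in GFP- and 11.9 in GFP+. Of 10 receptor genes, 9 had a start peak in either list and 2 ranked over 10 points lower in GFP+, the integrin gene Itga7 (76.6 and 65.1) and Ddr1 (29.5 and no peak). With every annotated start, Itga7 alone remained past 10 points. The common beta integrin gene Itgb1 (97.7 and 97.4) and the dystroglycan gene Dag1 (99.1 and 98.9) were nearly level.

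The interstitial collagens, the fibrillar and beaded-filament collagens of connective tissue, moved otherwise. All 8 of 8 ranked over 10 points lower in GFP+, with a median difference of -62.6 points, and 6 of them had no start peak in GFP+. With every annotated start the median was -52.9, and 3 of 8 had a peak in GFP+. For Col1a1 the start of the gene record ranked 95.6 in GFP- and had no peak in GFP+. Over all its annotated starts, Col1a1 ranked 95.6 in GFP- and 80.7 in GFP+, the smallest difference of the 8 genes. Nid1 moved in the same direction as these genes and as the fibroblast and mural markers above. So did 9001 of the 12577 genes with a start peak in either list. Among other markers, Actc1, Tek and the leukocyte gene Cd68 (31.8 in GFP- and 16.8 in GFP+) also ranked over 10 points lower. The part of any cell type in the Nid1 difference was not tested.

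Around and inside the genes, within the gene body and 50 kb to each side, there were 203 GFP- peaks and 172 GFP+ peaks by their summits. Of the GFP- peaks, 145 met a GFP+ peak with an overlap of 1 bp or more (71.4%, Wilson 95% interval 64.9 to 77.2), and of the GFP+ peaks 146 met a GFP- peak (84.9%, 78.8 to 89.5). Unshared were thus 58 GFP- peaks and 26 GFP+ peaks, where 30.3% of all GFP- peaks and 13.4% of all GFP+ peaks lacked a partner. By place, 114 GFP- and 93 GFP+ peaks had their summit in an intron of the genes, 6 and 7 in an exon, 9 and 9 were start peaks, and 74 and 63 lay in the flanks. Inside the genes the share was lower than in the flanks: 78 of 120 GFP- peaks were shared inside (65.0%, 56.1 to 72.9) and 58 of 74 in the flanks (78.4%, 67.7 to 86.2), and for GFP+ these were 78 of 100 (78.0%, 68.9 to 85.0) and 59 of 63 (93.7%, 84.8 to 97.5). The intervals overlap in both lists, and many flank peaks belong to neighbouring genes. The same split was not made over all genes, so it cannot be read as a trait of these genes. In the same windows of all protein-coding genes, the median share per window was 81.25% for GFP- peaks and 100% for GFP+ peaks. These are medians over windows and not pooled shares.

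**Figure D2:**
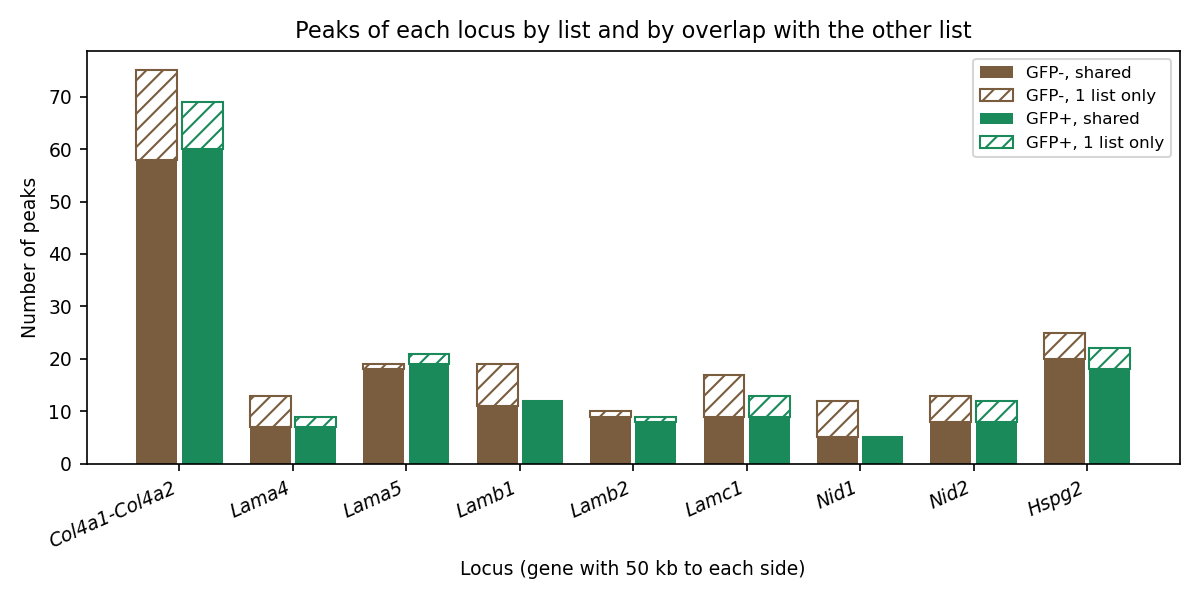
Number of peaks in each locus (gene with 50 kb to each side) in the GFP- list (brown) and the GFP+ list (green), split into peaks that overlap a peak of the other list (solid) and peaks found in 1 list only (hatched). The Col4a1-Col4a2 locus holds 75 and 69 peaks, and at Nid1 7 of 12 GFP- peaks but 0 of 5 GFP+ peaks are unshared.

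Loci ranged widely in this share. At Lama5, 18 of 19 GFP- and 19 of 21 GFP+ peaks were shared. Lamb2 had 9 of 10 and 8 of 9, and Hspg2 had 20 of 25 and 18 of 22. At Nid1, only 5 of 12 GFP- peaks were shared (41.7%, 19.3 to 68.0), while 5 of 5 GFP+ peaks were. Lamb1 resembled Nid1 in this, with 11 of 19 GFP- and 12 of 12 GFP+ peaks shared. Lama4 had 7 of 13 and 7 of 9, Lamc1 had 9 of 17 and 9 of 13, and Nid2 had 8 of 13 and 8 of 12. The intervals of these small loci overlap widely.

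Peaks of both lists were then merged into regions, and the 197 distal regions (over 1000 bp from the start of any protein-coding gene record) were compared by rank. Starts of further transcripts were not excluded, so that the region at the internal Col4a1 start counts as distal. Of the 197 regions, 83 ranked over 10 points lower in GFP+, 40 ranked over 10 points higher and 74 lay within 10 points. The share lower was 42.1% against 40.3% of all 73868 distal regions of the genome, and the share higher was 20.3% against 15.8%. The median difference was -5.47 points, beside -5.42 over all distal regions. With the GFP- list shortened to the length of the GFP+ list, lower regions no longer outnumbered higher ones. Of 179 regions, 57 ranked lower (31.8%, against 26.7% of all distal regions) and 60 higher (33.5%, against 30.6%). The individual loci spread to both sides of these shares.

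**Figure D3:**
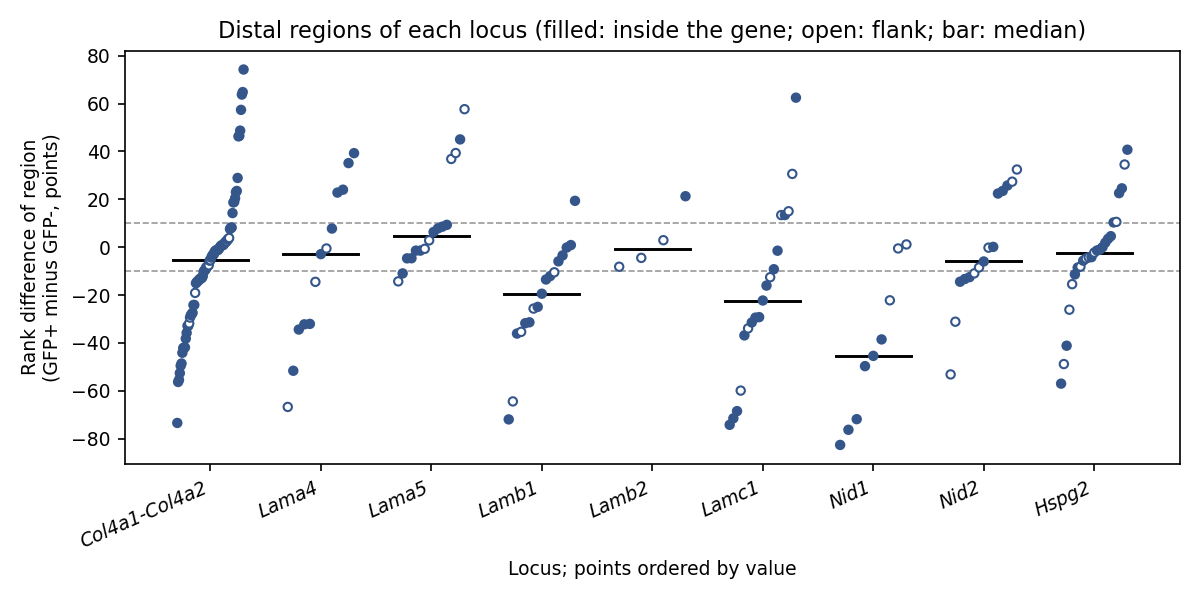
Rank difference (GFP+ minus GFP-, points) of each distal region by locus, ordered by value within a locus, with filled points inside the gene, open points in the flanks and a bar at the median. The dashed lines mark 10 points to either side of 0, and the Nid1 median of -45.4 and the Lama5 median of 4.59 are the extremes.

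At Nid1, 7 of 9 distal regions ranked over 10 points lower in GFP+ and 0 ranked higher, and with lists of equal length 7 ranked lower and 2 higher. All 6 regions inside the gene were GFP- peaks with no GFP+ partner, with ranks from 38.5 to 82.6 (median 60.8). They lay between 37.6 and 66.7 kb from the start, and beyond the first 1000 bp no base of the gene body was covered in GFP+, against 4.78% of 73719 bp in GFP-. For 20176 genes, the median coverage was 0.400% by GFP- peaks and 0.0715% by GFP+ peaks. The strongest of these peaks was chr13:13487817-13488512, an intron peak of 696 bp at 50.5 kb with rank 82.6, the highest-ranked GFP- only peak inside any of the 10 genes. The 200 bp round its summit are given for this reason (chr13:13487965-13488164, plus strand, GRCm38.p6), with a GC box word in capitals.

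Nid1 intron, GFP- only: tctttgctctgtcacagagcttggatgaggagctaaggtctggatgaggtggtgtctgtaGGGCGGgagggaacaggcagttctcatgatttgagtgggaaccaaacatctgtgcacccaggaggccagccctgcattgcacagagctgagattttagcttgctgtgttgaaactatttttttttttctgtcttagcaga

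**Figure D4:**
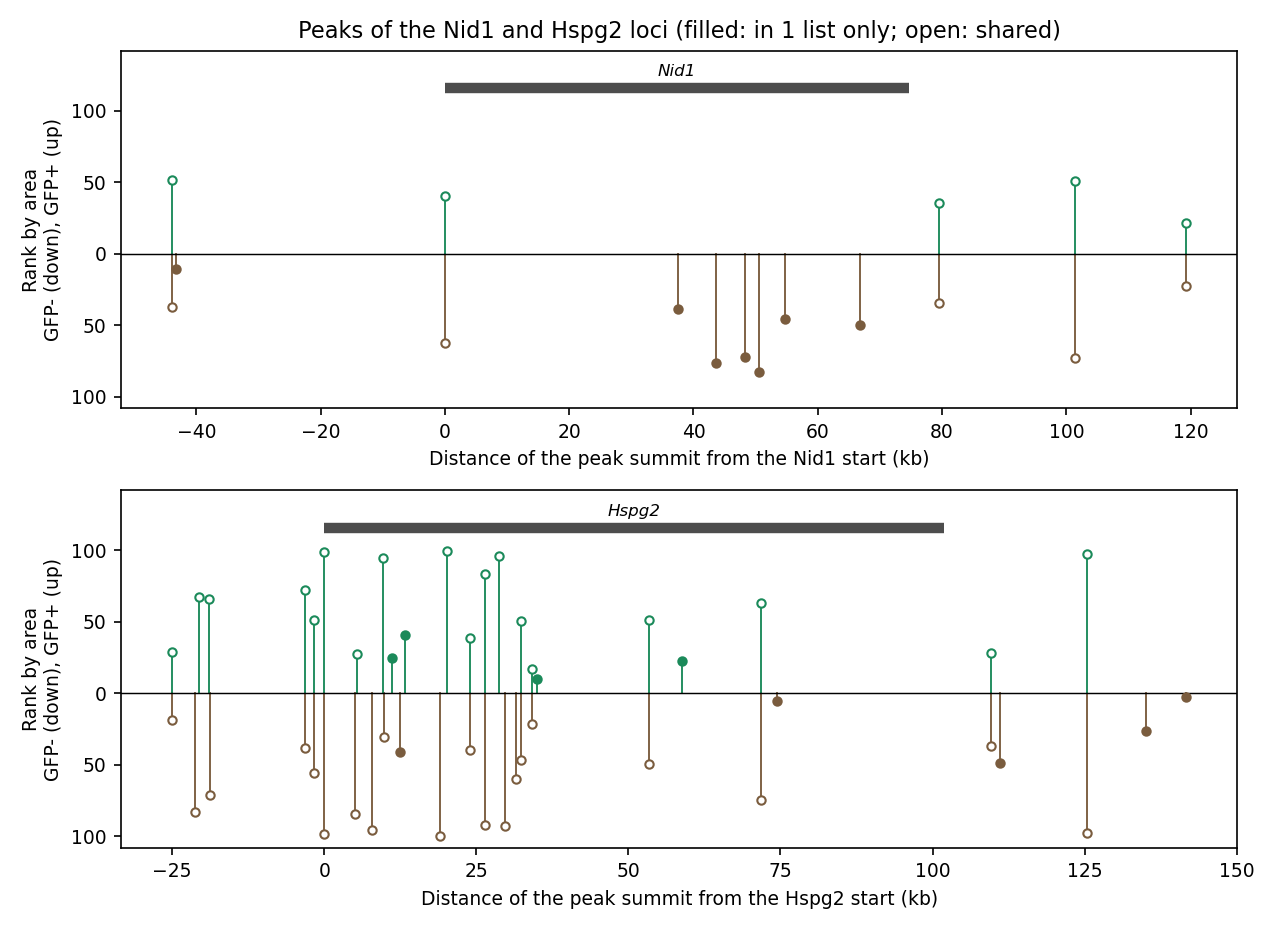
Peaks of the Nid1 locus (upper panel) and the Hspg2 locus (lower panel) by distance of the summit from the gene start in kb, with rank by area drawn upward for GFP+ and downward for GFP-, filled points for peaks in 1 list only and the gene as a grey bar. In Nid1, 6 filled GFP- points stand inside the gene with no GFP+ peak above them, whereas Hspg2 has tall peaks on both sides.

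Hspg2 was covered nearly alike in both lists. Peaks covered 21.5% of its body beyond the first 1000 bp in GFP- and 22.1% in GFP+. Of its 25 distal regions, 6 ranked over 10 points higher in GFP+, 6 lower and 13 lay within 10 points, and with lists of equal length 10 of 23 ranked higher and 5 lower. Its largest peak was not at the start but in its introns. It spanned chr4:137483686-137490613 (6928 bp) in GFP- and chr4:137483728-137490650 (6923 bp) in GFP+, ranked 99.9 in both, and was number 58 of the GFP- list and number 40 of the GFP+ list by area. The 200 bp round its GFP+ summit are shown because it is the largest peak inside the 10 genes (chr4:137488918-137489117, plus strand, GRCm38.p6, SOX word in capitals).

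Hspg2 intron, shared: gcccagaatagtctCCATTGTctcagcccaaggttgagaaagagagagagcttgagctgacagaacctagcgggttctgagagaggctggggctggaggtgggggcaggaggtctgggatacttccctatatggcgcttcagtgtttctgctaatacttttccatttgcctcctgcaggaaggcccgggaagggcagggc

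Near this shared peak, smaller Hspg2 peaks differed. A peak 5.1 kb into the gene, chr4:137473624-137474950, ranked 84.5 in GFP- and its GFP+ partner ranked 27.5. A peak 3.2 kb upstream of the start, chr4:137464913-137465724, ranked 72.4 in GFP+ and 37.9 in GFP-. Between 11 and 14 kb, single-list peaks alternated, with a GFP+ only peak at rank 24.6, a GFP- only peak at rank 41.2 (chr4:137480677-137481530) and a GFP+ only peak at rank 40.7 (chr4:137481613-137482123).

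The Col4a1-Col4a2 locus was the richest, with 79 distal regions, 60 of them inside the genes. Over the locus 32 ranked over 10 points lower in GFP+ and 14 higher, and all 14 higher regions were inside the genes. With lists of equal length, 20 of 71 ranked lower and 20 higher. In Col4a1, 12 of 22 regions ranked lower and 6 higher, with a median of -18.5. In Col4a2, 15 of 38 ranked lower and 8 higher, with a median of -3.03. These became 9 of 21 lower and 6 higher in Col4a1, and 9 of 33 lower and 11 higher in Col4a2, with lists of equal length. The order along Col4a1 was uneven in a way chosen for description after the values were seen: all 3 regions within 10 kb of the start ranked higher in GFP+, whereas of 19 regions farther in, 12 ranked lower and 3 higher.

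**Figure D5:**
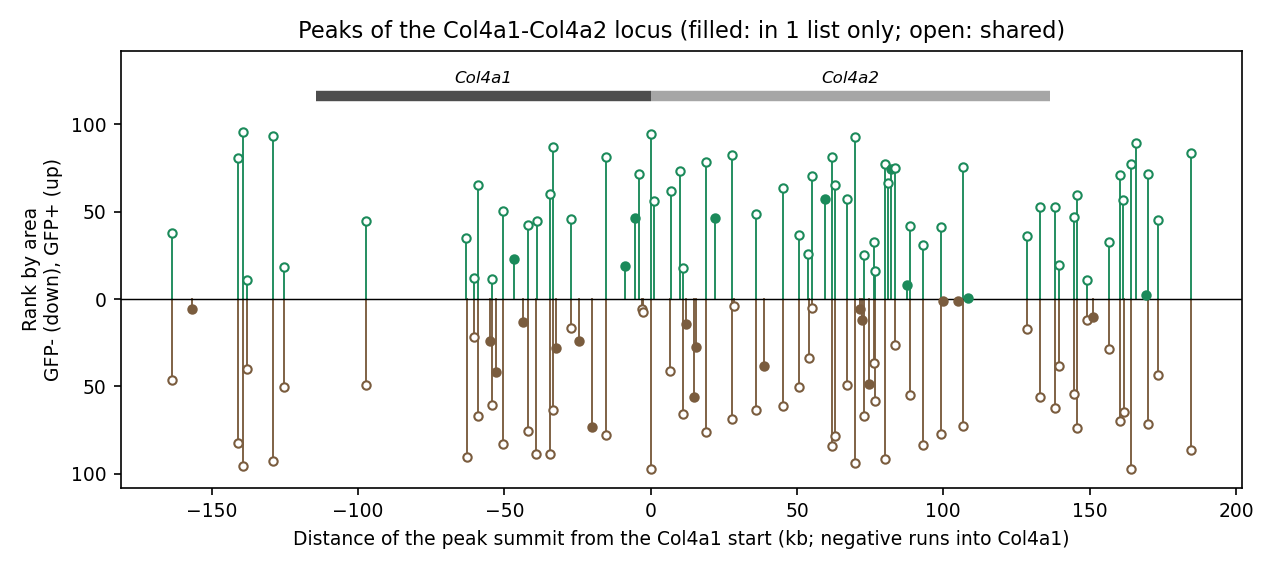
Peaks of the Col4a1-Col4a2 locus by distance of the summit from the Col4a1 start in kb, negative into Col4a1 and positive into Col4a2, with rank by area drawn upward for GFP+ and downward for GFP- and filled points for peaks in 1 list only. The joint start peak at 0 stands at 97.5 in GFP- and 94.1 in GFP+, and a filled GFP+ point at 82.1 kb marks the GFP+ only peak of rank 74.2 in Col4a2.

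On the side of GFP+, the region chr8:11308222-11310334, 4.0 kb into Col4a1, ranked 71.3 in GFP+ and 7.57 in GFP-. There the GFP+ list had 1 peak of 2061 bp, and the GFP- list had 2 short ones, of 164 bp (rank 5.56) and 370 bp (rank 7.57). Area adds up along a peak, and the part of this split in the difference was not tested. In Col4a2, chr8:11394377-11395333, an intron peak of 957 bp at 82.1 kb, was in the GFP+ list only, at rank 74.2, the highest GFP+ only rank inside the 10 genes. Beside it at 83.4 kb, chr8:11395666-11396598 ranked 74.9 in GFP+ and 26.1 in GFP-. A peak at 55.1 kb, chr8:11367403-11368055, ranked 70.2 in GFP+ and 5.37 in GFP-, the largest gain of a GFP+ intron peak over its partner. Both GFP+ intron peaks are shown over 200 bp round the summit (chr8:11394852-11395051 and chr8:11367795-11367994, plus strand, GRCm38.p6), the one with none of the searched words and the other with a SOX word and an AP-1 word in capitals, 2 bases apart.

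Col4a2 intron, GFP+ only: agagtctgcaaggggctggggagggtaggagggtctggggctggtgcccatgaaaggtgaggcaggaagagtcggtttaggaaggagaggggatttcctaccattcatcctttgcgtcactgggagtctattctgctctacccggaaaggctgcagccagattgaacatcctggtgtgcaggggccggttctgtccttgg
Col4a2 intron, shared and higher in GFP+: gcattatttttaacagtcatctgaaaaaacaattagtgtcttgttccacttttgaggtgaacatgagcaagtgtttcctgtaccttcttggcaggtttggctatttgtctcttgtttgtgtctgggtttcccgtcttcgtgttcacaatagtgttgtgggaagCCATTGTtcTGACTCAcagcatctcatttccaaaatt

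On the side of GFP-, the Col4a1 intron peak chr8:11292434-11292994, 20.035 kb into the gene, ranked 73.5 and had no GFP+ partner. A peak 62.9 kb into Col4a1, chr8:11249438-11250580, ranked 90.4 in GFP- and its GFP+ partner ranked 35.0. In Col4a2, chr8:11405229-11406642 ranked 83.7 in GFP- and 31.1 in GFP+. Strong peaks were also common to both lists, such as the intron region chr8:11381890-11383922 of Col4a2 (94.0 in GFP- and 92.8 in GFP+) and a peak in the flank beyond the end of Col4a1 (chr8:11172554-11174208, 95.6 in GFP- and 95.5 in its GFP+ partner).

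Among the laminins, Lamc1 and Lamb1 leaned to GFP-, Lamb1 mainly in the whole lists. At Lamc1, 12 of 19 distal regions ranked over 10 points lower in GFP+ and 5 higher, with a median of -22.3 points, and with lists of equal length 11 of 18 ranked lower and 5 higher. Its body was covered to 5.84% in GFP- and 2.88% in GFP+. Near its 3′ end, a GFP+ only peak (chr1:153224327-153224993, rank 62.5) and a GFP- only peak (chr1:153225639-153226416, rank 74.2) lay 645 bp apart. They are the second-ranked locus of each class by their highest single-list intron peak, and are shown as neighbours of opposite class (chr1:153224434-153224633 and chr1:153226080-153226279, plus strand, GRCm38.p6, AP-1 word in capitals).

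Lamc1 intron, GFP+ only: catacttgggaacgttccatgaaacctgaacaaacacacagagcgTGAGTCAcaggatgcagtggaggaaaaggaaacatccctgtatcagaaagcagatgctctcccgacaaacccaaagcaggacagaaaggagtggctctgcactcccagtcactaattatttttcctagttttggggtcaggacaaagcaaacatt
Lamc1 intron, GFP- only: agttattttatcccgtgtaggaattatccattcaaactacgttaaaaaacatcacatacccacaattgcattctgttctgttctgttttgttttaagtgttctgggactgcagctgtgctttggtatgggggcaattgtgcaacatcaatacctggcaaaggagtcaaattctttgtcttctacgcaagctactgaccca

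At Lamb1, 12 of 17 distal regions ranked lower in GFP+ and 1 higher, with a median of -19.4, and with lists of equal length 7 of 15 ranked lower and 3 higher. Inside the gene, 8 of 13 ranked lower and 1 higher. With lists of equal length this became 4 of 12 lower and 3 higher (33.3% and 25%, against 26.7% and 30.6% of all distal regions). Peaks covered 11.8% of the Lamb1 body in GFP- and 6.01% in GFP+. The highest Lamb1 peak of GFP- alone lay over an exon at 34.8 kb (chr12:31299751-31300460, rank 72.0), and the strongest shared one, at 28.7 kb, ranked 81.3 in GFP- and 77.9 in GFP+ (chr12:31293513-31294237). A weak peak near its end, chr12:31314324-31314577, was the single Lamb1 region that ranked higher in GFP+ in the whole lists, at 24.95 against 5.58.

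At Lama5, 4 of 16 distal regions ranked over 10 points higher in GFP+, 2 lower and 10 lay within 10 points, with a median of 4.59. Inside the gene this was 1 higher and 1 lower of 10, and the other 3 higher regions lay in the flanks, nearer to the starts of Adrm1 or Rps21. With lists of equal length, 3 of 9 regions inside the gene ranked higher and 0 lower. Its body was covered to 17.1% in GFP- and 20.6% in GFP+. Inside the gene, chr2:180216007-180216511 ranked 55.3 in GFP+ and 10.3 in GFP-, and the other regions of the gene but 1 lay within 10 points. Lamb2, a short gene, was covered to 20% in GFP- and 32.0% in GFP+, with 1 further GFP+ only peak over an exon (chr9:108482560-108483250, rank 21.3).

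Among the 10 genes, Lama4 and Nid2 were covered least in GFP- and, after Nid1, in GFP+. Both lay above the medians over 20176 genes (0.400% in GFP- and 0.0715% in GFP+) and below the means (4.14% and 3.53%). Lama4 was covered to 2.55% and 1.72% of its body. Of 10 regions inside Lama4, 4 ranked higher in GFP+ and 4 lower (5 and 4 with lists of equal length), and these lay apart along the gene. The 4 higher ones stood between 14.4 and 27.4 kb from the start, led by chr10:38992712-38993281 (67.5 in GFP+, 28.2 in its GFP- partner), and the 4 lower ones, all in GFP- only, between 28.8 and 82.5 kb, led by chr10:38994150-38994471 (rank 51.6). Nid2 was covered to 1.88% and 2.50%, and its regions inside the gene were weak, at ranks of at most 25.8 in GFP+ and 14.4 in GFP-. The strongest single-list peak near Nid2 was upstream, at 13.0 kb from the start (chr14:19738126-19738663, rank 53.2, GFP- only), and a shared peak at 17.2 kb upstream ranked 63.6 in GFP+ and 36.2 in GFP- (chr14:19733461-19734244).

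Motif words were counted in the 200 bp round the summits of the distal peaks of all 9 loci. ETS words were in 0 of 26 GFP+ only windows, against 6.00% of all 8388 such distal peaks, and in 2 of 56 GFP- only windows, against 3.29% of 22951. SOX words were in 1 of 26 and 0 of 56, against 6.00% and 2.05%. TCF21 words were in 0 of 26 GFP+ only and 5 of 56 GFP- only windows (8.93%), against 2.10% and 5.66%. AP-1 words were in 5 of 26 GFP+ only windows (19.2%), against 6.43% of all, and in 9 of 56 GFP- only windows (16.1%), against 11.8%. Among shared peaks of these loci in the GFP+ list, 7 of 120 held an ETS word (5.83%), against 2.86% of 44425. Shared peaks in the GFP- list were alike in this, with 7 of 121 (5.79%), against 2.82% of 43373. Shared windows with a SOX word were 6 of 120 in GFP+ and 3 of 121 in GFP-, against 2.65% and 2.58%. For TCF21 words these were 3 of 120 and 3 of 121, against 2.13% and 2.26%. For AP-1 words they were 11 of 120 and 11 of 121, against 6.85% and 7.18%. These counts are small and describe letters in the windows.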

How the data were processed

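Peak lists of GFP- and GFP+ heart nuclei were analysed, 1 per population from 2 libraries each. After trimming, the authors aligned reads to mm10 with Bowtie2, discarded duplicates with Picard, brought libraries to a common depth and ran Genrich on both replicates jointly. For every peak they deposited its area, a signal added up along the peak, and the −log10 p-value of its summit. No peak had an area under 200, and library depths are not analysed here. Because downsampling does not even out how strongly reads concentrate in peaks, areas were compared as percentile ranks within a list.

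Genes came from GENCODE M21 (GRCm38) and sequence from GRCm38.p6. Peaks belonged to a locus by their summit, within the gene or 50 kb to each side, and a peak over a gene's start +/- 250 bp was its start peak. Named were all 10 genes, all annotated starts, the highest-ranked peak of each class inside a gene and in flanks nearest to it, and the shared pairs that differed most. Intron peaks of Hspg2, Lamc1 and Col4a2 shown as sequence beyond the highest single-list peaks, and other regions described along Col4a1, Col4a2, Lama4 and Hspg2, were chosen after their values were seen. The genes and lists were chosen with earlier results of these data known. Overlap steps were tested on simulated data (0 differences in 1500 peaks). Alternatives changed the start definition, window, ranking measure, list length, overlap, threshold and flanks. Scripts ran in Python 3.11.15 (pysam 0.24.0, pandas 2.3.3, scipy 1.17.1, numpy 2.4.6, matplotlib 3.10.9).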

Additional observations from a re-analysis of the deposited data

How the results depend on the processing

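No paired analysis was possible because each list was called from both replicates together, and leaving out a replicate could not be run for the same reason. Ranked by the summit's −log10 p, 2 genes lay over 10 points lower in GFP+ in place of 1, as Lamb1 joined at -20.2 and Nid1 lay at -33.8; the cause was not tested. The other start settings (every annotated start, a window of 1000 bp, lists of equal length, and only starts with a peak in both lists) left Nid1 as the single gene past 10 points. The share of GFP- peaks with a partner was 60.1% when an overlap of 50% of both peaks was required and 86.1% among peaks in the upper part of the list by area (rank over 50). For GFP+ peaks these were 70.9% and 96.9%, and the share was 78.6% without flanks and 77.9% with lists of equal length, which removes possible partners. Lists of equal length turned the sign of the genes' median start difference, from -0.80 to 0.90, and the balance of distal regions, from 40 higher and 83 lower to 60 and 57, which leaves the GFP- list without its smallest peaks and lowers the GFP- ranks of those kept. By the summit's −log10 p, the Lamb2 start lay at -1.93 in place of 3.73. The lists hold peaks above an area limit, so that a gene without a peak may still be weakly open, and a rank says nothing of absolute accessibility.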
